A study of Mus musculus with 4 samples.

Results

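Occupancy of the pancreas by Ptf1a and c-Myc was examined at the genes of Ptf1a and Rbpjl, which encode subunits of the transcription complex PTF1. The members were the peaks of the deposited Ptf1a and Myc lists whose midpoint lay in chr2:19320000-19420000, around Ptf1a, or in chr2:164180000-164280000, around Rbpjl (mm9). They were chosen by position alone, without use of their scores. The windows held 23 of 23096 peaks, of which 16 came from the Ptf1a list (17632 peaks) and 7 from the Myc list (5464 peaks). Chromatin immunoprecipitation followed by sequencing (ChIP-seq) had used pancreas from Ela1-myc mice at 8 weeks of age, with an antibody to Ptf1a in 1 mouse and the c-Myc antibody N262 in a pool of 3 mice. In these mice a Myc transgene is driven by the promoter of elastase 1, which is active in acinar cells. Both libraries came from mice with this transgene, so the lists make no comparison with pancreas that lacks it, and the input libraries were not analysed here. Each factor had 1 library, so no value has a replicate error, and no difference between the loci or the factors was tested. Whole pancreas holds acinar, duct, islet and other cells, no expression was measured here, and the tissue label was not checked against markers.

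Ptf1a is a basic helix-loop-helix factor that pairs with a ubiquitous E protein and binds an E-box. In the PTF1 complex this pair is joined by an RBPJ subunit, which binds a nearby TC-box or RBPJ site, so that the complex recognises a motif in 2 parts. RBPJ, the nuclear partner of Notch, fills this place in pancreatic progenitors, and its relative RBPJL, the product of Rbpjl, replaces it as acinar cells mature. PTF1 is known to act on its own genes: an enhancer upstream of Ptf1a is autoregulatory, and the Rbpjl promoter is a direct target. c-Myc, a helix-loop-helix leucine zipper factor that promotes growth, binds E-boxes with its partner Max.

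The promoters are shown because they carry, at one gene and not at the other, the letters of such a motif in 2 parts. Each is the stretch of 250 bases before the transcription start in RefSeq (GRCm38.p6, plus strand), at chr2:19445413-19445662 for Ptf1a and chr2:164402944-164403193 for Rbpjl, and these coordinates are on another build than the peaks. Capitals mark matches to CANNTG (any E-box), CACCTG or CAGCTG (E-boxes of PTF1), CACGTG (the E-box of Myc), TTTCCC (TC-box) and TTCCCA (RBPJ site), searched on both strands. The TC-box and the RBPJ site can overlap each other, and the named E-boxes are also matches to CANNTG.
Ptf1a promoter: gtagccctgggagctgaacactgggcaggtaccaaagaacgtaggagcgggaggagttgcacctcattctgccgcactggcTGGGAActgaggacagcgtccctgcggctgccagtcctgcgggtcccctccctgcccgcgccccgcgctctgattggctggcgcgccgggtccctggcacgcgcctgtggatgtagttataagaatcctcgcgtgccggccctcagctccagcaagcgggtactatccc
Rbpjl promoter: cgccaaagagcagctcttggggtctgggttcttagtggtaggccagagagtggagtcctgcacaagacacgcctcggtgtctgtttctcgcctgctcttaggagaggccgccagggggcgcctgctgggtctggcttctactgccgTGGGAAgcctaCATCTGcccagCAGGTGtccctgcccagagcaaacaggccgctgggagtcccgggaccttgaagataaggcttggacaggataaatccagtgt

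The Rbpjl promoter held an RBPJ site and 2 E-boxes in a row. The RBPJ site (TGGGAA, the reverse complement of TTCCCA) began 104 bases before the start. A general E-box, CATCTG, began 93 bases before the start, and the E-box CAGGTG, the reverse complement of CACCTG, began 82 bases before it. The gap to the RBPJ site was 5 bases for CATCTG and 16 bases for CAGGTG. In the Ptf1a promoter the 1 match was an RBPJ site, 169 bases before the start, and no E-box of any kind was found in these letters. Neither promoter held CACGTG or TTTCCC. Of 32851 promoters of this length in the table, 2.93% held CACCTG or CAGCTG within 30 bases of TTTCCC or TTCCCA, and 9.28% held any CANNTG at that distance. Singly the matches were common, with CANNTG in 66.2% of promoters, TTCCCA in 21.6%, CACCTG in 17.2%, CAGCTG in 13.0%, TTTCCC in 21.9% and CACGTG in 6.02%. A match is a description of letters, and whether these lie inside a peak was not tested, because peaks and promoters are on different builds.

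**Figure D1:**
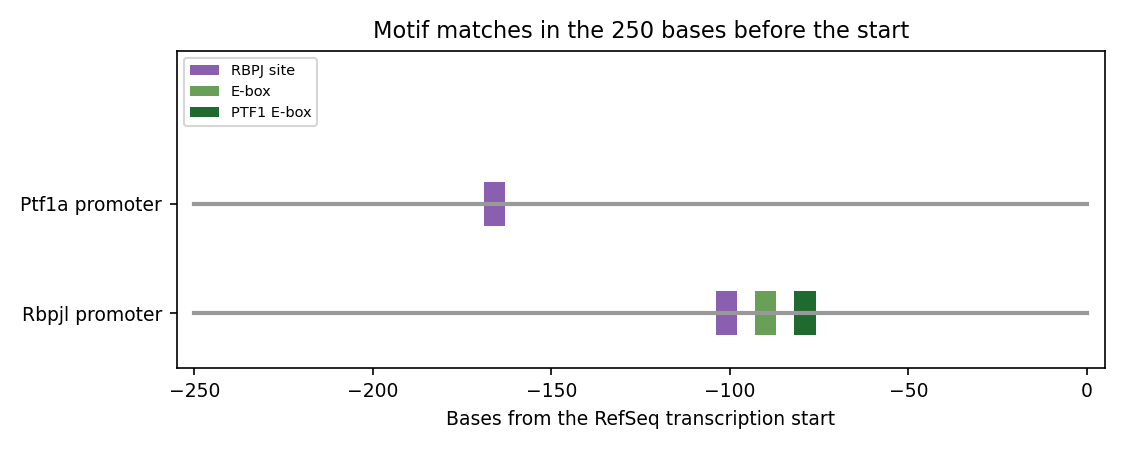
Positions of motif matches in the 250 bases before the RefSeq start of Ptf1a and of Rbpjl, with the distance to the start in bases on the x axis. The Rbpjl promoter holds an RBPJ site, an E-box and an E-box of PTF1 between 104 and 77 bases before the start, while the Ptf1a promoter holds an RBPJ site alone.

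The Ptf1a list placed strong sites by the Rbpjl gene position and only sites of middling score near Ptf1a. The positions of the genes on mm9 were taken from the rule that defines the windows, which gives them to the nearest 1 kb as 164.229 Mb and 19.367 Mb. Both genes are transcribed towards higher coordinates in RefSeq, so lower coordinates are upstream. The score in the lists is the peak caller's own value for each peak, and since no source used here gives its scale, it served to rank peaks within a list.

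At Rbpjl, 2 Ptf1a peaks lay just upstream of the gene position, whose place relative to the transcription start on mm9 was not tested. The one at chr2:164228260-164228866, 607 bp wide, had its midpoint 0.4 kb upstream of the gene position and a score of 1484.09. It ranked 250 of 17632, with 98.6% of the list scoring lower. Its neighbour at chr2:164226993-164227734, 1.6 kb upstream and 742 bp wide, scored 882.76, above 94.8% of the list. The edges of these peaks were 525 bp apart, and the Myc peak nearest to both had its midpoint 16.5 kb from the first and 15.3 kb from the second. Thus the highest Ptf1a peak of the locus stood within the 1 kb to which the gene position is known, and no Myc peak was listed there. In RefSeq the gene Matn4, which encodes a matrilin of the extracellular matrix, covers the start of Rbpjl on the opposite strand, so these peaks cannot be assigned to Rbpjl alone.

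The other 7 Ptf1a peaks of the Rbpjl window all lay downstream of the gene position. The strongest of them, at chr2:164263750-164264340, was 35.0 kb downstream and scored 720.06, above 92.6% of the list. The peak 19.6 kb downstream, at chr2:164248224-164248950, scored 172.77. The remaining 5 were 9.1, 14.7, 28.3, 31.2 and 32.2 kb downstream, with scores of 64.93, 95.91, 76.15, 105.65 and 145.38. Of the 7, then, 1 was in the top 10% of the list and the scores of the others lay between the 19.8% and the 63.8% mark of the list. The next gene in that direction in RefSeq is Sdc4, which encodes the cell surface proteoglycan syndecan 4, and to which gene the far peaks relate was not tested.

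At Ptf1a no peak of either list had its midpoint closer than 5.0 kb to the gene position. In RefSeq the long noncoding RNA gene Ptf1aos covers the start of Ptf1a on the opposite strand, as Matn4 does at Rbpjl. The nearest Ptf1a peak, at chr2:19361691-19362258, stood 5.0 kb upstream with a score of 129.76, above 54.3% of the list. The other upstream peak, at chr2:19353409-19354044, was 13.3 kb from the gene position and scored 155.67, above 60.6% of the list. These are the only members upstream of Ptf1a in either list, and neither overlapped a Myc peak, as was so for most Ptf1a peaks of the list (13.4% overlapped one). Both upstream peaks lie on the side of the gene where the autoregulatory enhancer is known, and whether either lies in that enhancer was not tested.

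Downstream of Ptf1a the window held 5 Ptf1a peaks. Those at chr2:19375974-19376680 and chr2:19377956-19378543 were 9.3 and 11.2 kb away and scored 86.77 and 121.91. A single peak at chr2:19387224-19387678, 20.5 kb away, scored 147.44. The last were at chr2:19409826-19410606, 43.2 kb away with a score of 110.03, and at chr2:19411471-19412504, 45.0 kb away with a score of 1040.85. The peak at 45.0 kb was the 1 site of this locus in the top 10% of the list, above 96.5% of it, and at 1034 bp the widest Ptf1a peak of the window. The next gene downstream in RefSeq is the long noncoding RNA gene 1810010K12Rik, and the next coding gene is 4921504E06Rik. To which gene this peak relates was not tested.

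**Figure D2:**
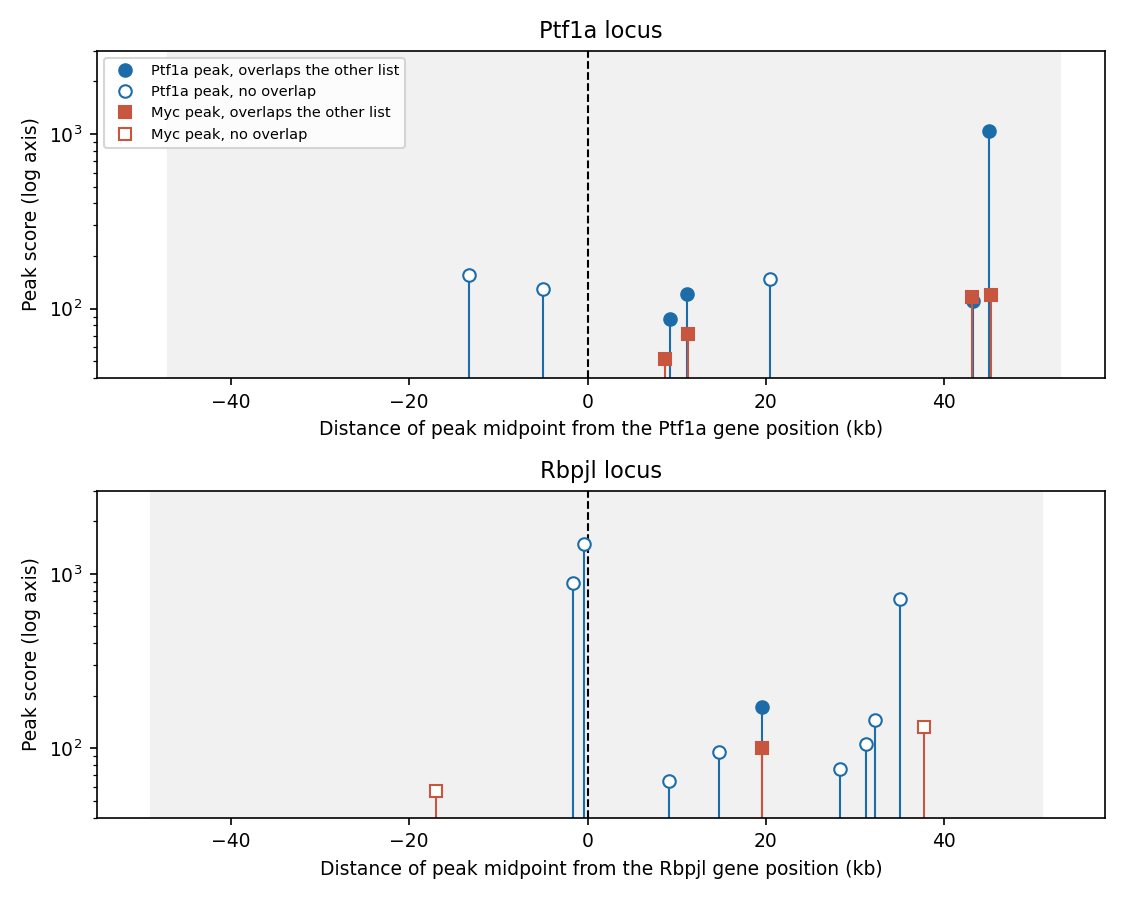
Score of each peak (log axis) against the distance of its midpoint from the gene position in kb, with Ptf1a peaks as circles and Myc peaks as squares, filled where the peak overlaps the other list; the grey area is the window and the dashed line the gene position. The highest Ptf1a peak of the Rbpjl window (1484.09) stands at the gene position, and that of the Ptf1a window (1040.85) stands 45.0 kb downstream.

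In each window the median score of the Ptf1a peaks was not far from that of the list. It was 129.8 in the Ptf1a window (86.77 to 1040.85) and 145.4 in the Rbpjl window (64.93 to 1484.09), against 116.1 over the list (quartiles 70.5 and 266.4). Scores of at least 100 were found for 6 of 7 and 6 of 9 peaks, beside 56.6% of the list. In the top 10% of the list were 1 peak at Ptf1a and 3 at Rbpjl, and the other 12 lay between its 19.8% and 63.8% marks. In the Ptf1a list the Rbpjl window had a highest score that 0.892% of all 26358 windows of 100 kb along the 20 assembled chromosomes reached, and the Ptf1a window one that 2.12% reached. These were 235 and 560 windows, where 7623 windows held any Ptf1a peak and 71.1% of all windows held none.

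**Figure D3:**
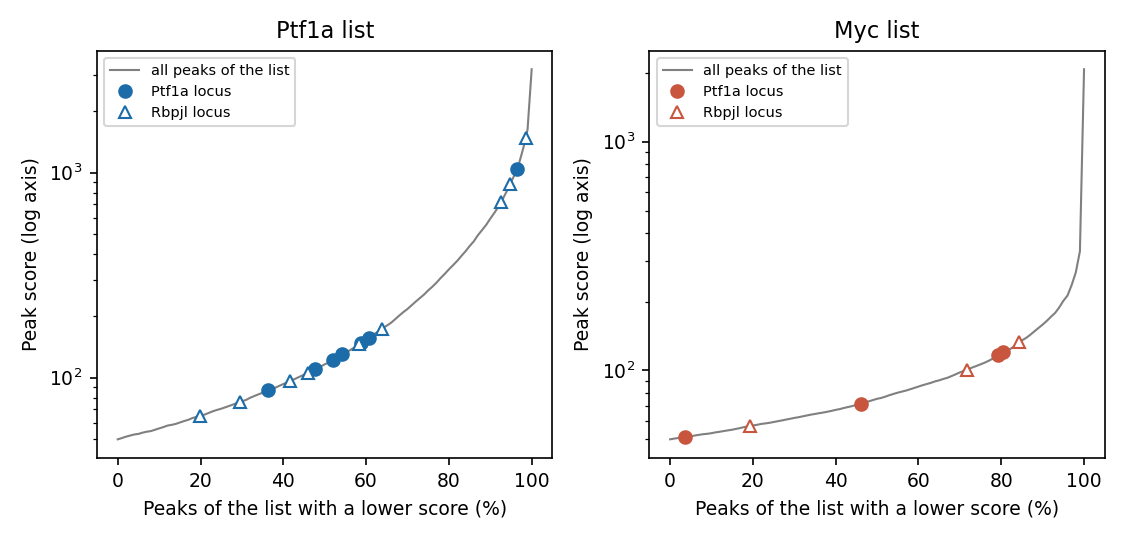
Score of each member (log axis) against the percentage of its own list that scored lower, on the curve of the whole list. In the Ptf1a list 4 members (720.06, 882.76, 1040.85 and 1484.09) lie in the top 10%, and the 7 members of the Myc list stay at or below the 84.3% mark.

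The Myc list had 4 peaks at the Ptf1a locus, all downstream of the gene. They lay at chr2:19375416-19376070, chr2:19377864-19378828, chr2:19409556-19410697 and chr2:19411932-19412663, with midpoints 8.7, 11.3, 43.1 and 45.3 kb from the gene position. Their scores were 51.13, 71.66, 116.51 and 119.85, against a median of 75.2 in the Myc list. The first of these stood near the floor of the list, where 3.53% of Myc peaks scored lower, and the last stood above 80.4% of the list. At least 100 was reached by 2 of the 4, and by 2 of the 3 Myc peaks at Rbpjl, beside 28.7% of the list. No Myc peak lay upstream of Ptf1a within the window, and the nearest on that side in the whole list was 810.3 kb away.

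Every Myc peak of the Ptf1a window overlapped a Ptf1a peak by 1 bp or more, 4 of 4, where the share in the Myc list was 41.4%. Of the Ptf1a peaks there, 4 of 7 overlapped a Myc peak, where the share in the Ptf1a list was 13.4%. The shared Ptf1a sites stood as a doublet at 9.3 and 11.2 kb and another at 43.2 and 45.0 kb downstream of the gene. In the nearer doublet, the Myc peak at 11.3 kb held the whole Ptf1a peak at 11.2 kb, with midpoints 96.5 bp apart. Its companion was a contact of edges only: 97 bp were shared, 14.8% of the narrower peak, and the midpoints were 584 bp apart, farther than in 96.3% of the 2368 overlapping pairs of the lists (median 109.5 bp). In the farther doublet, the Ptf1a peak at 43.2 kb lay wholly inside its Myc peak with midpoints 89.5 bp apart. The strongest Ptf1a peak of the locus, at 45.0 kb, shared 573 bp with its Myc peak, 78.3% of the narrower, with midpoints 310 bp apart.

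At the Rbpjl locus the Myc list had 3 peaks, and 1 of them overlapped a Ptf1a peak. That peak, at chr2:164248112-164249094 and 19.6 kb downstream, scored 100.63 and held the whole Ptf1a peak of score 172.77, with midpoints 16 bp apart, closer than in all but 7.6% of pairs. The others were at chr2:164211645-164212435, 17 kb upstream with a score of 57.24, and at chr2:164265988-164267397, 37.7 kb downstream with a score of 132.58. The latter was the highest and the widest Myc peak of both windows (1410 bp) and began 1.65 kb after the end of the Ptf1a peak at 35.0 kb. Of the 9 Ptf1a peaks, 1 overlapped a Myc peak, beside 13.4% of the list. The 3 with the highest scores were among those without one, and the share among high-scoring peaks of the list was not examined. In 4 of the 5 overlapping pairs at these loci at least 50% of the narrower peak was covered, beside 93.9% of all pairs. The counts of shared Ptf1a peaks were thus 4 of 7 at Ptf1a and 1 of 9 at Rbpjl, a difference that was not tested.

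**Figure D4:**
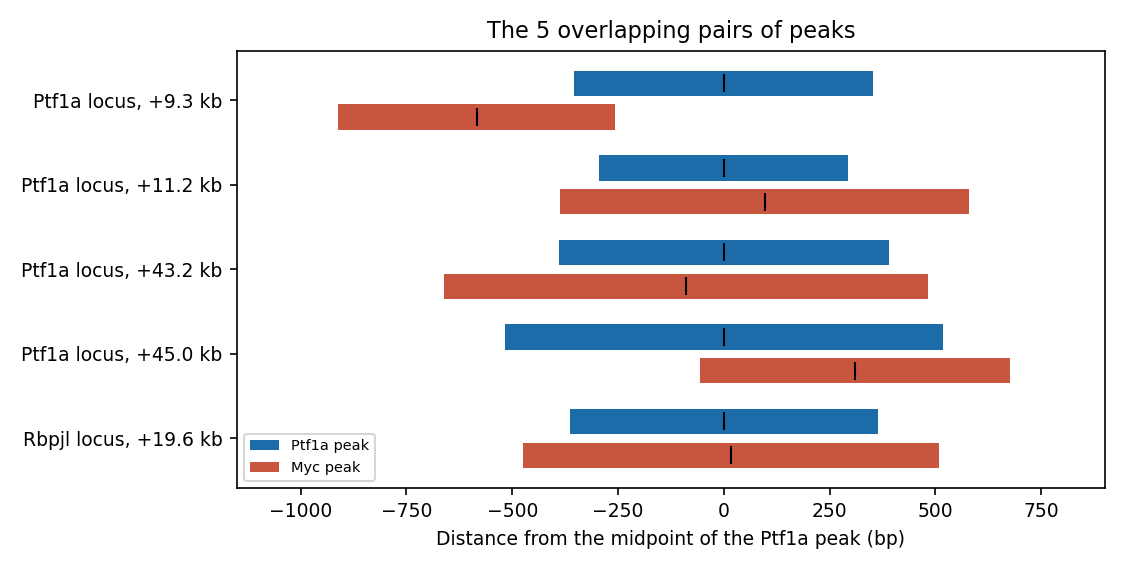
Extent of the Ptf1a peak and the Myc peak of each overlapping pair, in bp from the midpoint of the Ptf1a peak; black marks are midpoints and each label gives the place of the Ptf1a peak relative to its gene position. In 3 pairs the Myc peak spans the whole Ptf1a peak, and at 9.3 kb from Ptf1a the peaks share 97 bp.

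Ptf1a peaks crowded at both loci. The Ptf1a window held 7, a number that 1.20% of all windows of 100 kb reached and 4.15% of the 7623 windows with any Ptf1a peak. The Rbpjl window held 9, reached by 0.444% of all windows and 1.53% of those with a Ptf1a peak. The median window held 0 peaks of either list. The Myc counts of 4 and 3 were reached by 0.543% and 1.54% of all windows, and by 3.93% and 11.2% of the windows with a Myc peak. At least 4 shared Ptf1a peaks, as at Ptf1a, were found in 0.144% of all windows (38 windows), and at least 1, as at Rbpjl, in 6.69% (1764 windows). A window set on a gene is not a like sample of windows that also cover stretches without genes, so these shares place the loci and test nothing.

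Many windows as full as these also held a Myc peak. Of the 316 windows with 7 or more Ptf1a peaks, 84.5% held a Myc peak, beside 13.8% of all windows, and 8.86% held 4 or more shared Ptf1a peaks, as the Ptf1a locus did. Of the 143 windows with 4 or more Myc peaks, 11.2% had all of them shared. Of the 117 windows with 9 or more Ptf1a peaks, 45.3% had at most 1 shared, as the Rbpjl locus did.

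**Figure D5:**
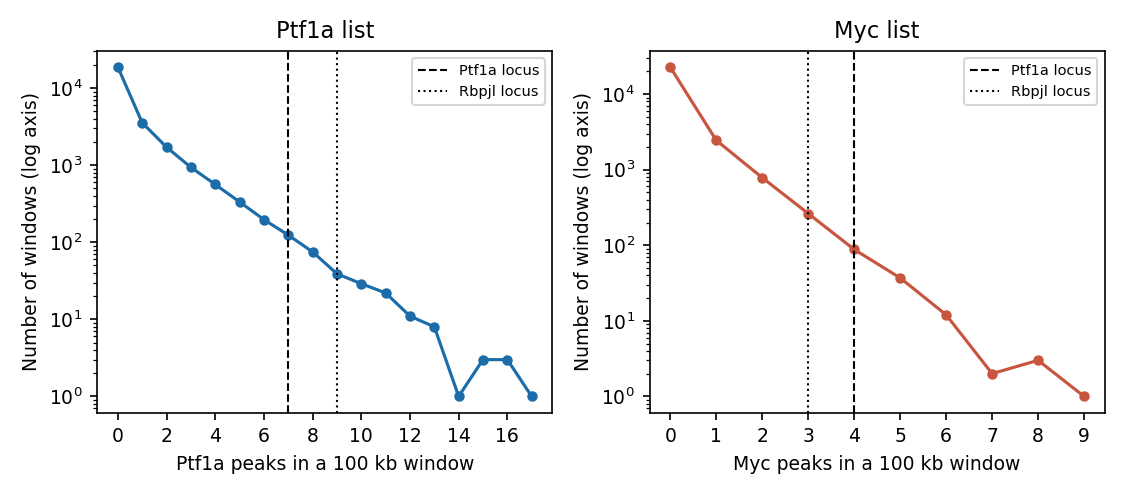
Number of windows of 100 kb (log axis) by the number of peaks they hold in the Ptf1a list and in the Myc list, with the counts at the loci as vertical lines (7 and 9 Ptf1a peaks, 4 and 3 Myc peaks). Most windows hold 0 peaks, and both loci lie in the upper tail.

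Some of the Ptf1a peaks, 8 of 16, stood in doublets. At Ptf1a 4 of 7 and at Rbpjl 4 of 9 had another Ptf1a peak with its midpoint within 2 kb, beside 19.8% of the list. That share takes in peaks of sparse windows, and the share in windows as full as these was not examined. None of the 7 Myc peaks had another Myc peak that close, beside 9.66% of their list. At Ptf1a both doublets, with midpoints 1.92 and 1.77 kb apart, had a Myc peak overlapping each of their sites by 1 bp or more. At the 9.3 kb site this was a contact of edges only, 97 bp or 14.8% of the narrower peak. The Myc midpoints were 2.6 and 2.17 kb apart. At Rbpjl the doublets had midpoints 1.2 and 0.99 kb apart, at the gene position and at 31.2 and 32.2 kb downstream, and none of their 4 peaks overlapped a Myc peak, which is near the 13.4% of the list. The 2 kb limit was set after the positions were seen, and the Myc pairs at Ptf1a fall just outside it.

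The windows end at chosen limits, and the peaks just outside them were as follows. Beyond the last Ptf1a peak inside the Ptf1a window, the next was 68.4 kb downstream, with a score of 80.98, and a Myc peak of score 122.56 stood 72.9 kb downstream without overlap. On the upstream side the next Ptf1a peak was 105.2 kb away, with a score of 686.68. At Rbpjl the next Ptf1a peaks were 57.3 kb downstream (score 108.12) and 330.4 kb upstream (score 136.97), and the next Myc peaks 120 kb downstream and 229.7 kb upstream. The upstream side of Rbpjl was thus bare in the Ptf1a list from the peaks at the gene position to that peak.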

How the data were processed

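ChIP-seq peak lists of Ptf1a (1 mouse) and c-Myc (3 pooled mice) in pancreas were used. The authors deposited 1 list per library with a score for each peak, whose scale is not stated; no score was below 50.0. The submitters' processing notes name the build mm9 and the tools MACS 1.4.1, BWA 0.5.9-r16, FastQC 0.9.4 and CASAVA 1.8. What each did, at which threshold and with which input is not given in these sources. Depth is unknown. Members, lists and tests were chosen with earlier results of these data known. All members were described, by position, width, score and rank. Peaks were shared at 1 bp of overlap or more. Windows of 100 kb were tiled from the first base of each chromosome to its last peak. No statistical test was run. Coordinates of peaks are on mm9, counted from 1. RefSeq promoters and gene order (GRCm38.p6) matched 2 of 2 genes by symbol and were not set against peak coordinates. The genes of the other PTF1 subunits were not analysed here, since the gene table is on another build. Counting was tested on simulated data. Python 3.11.15, numpy 2.4.6, pandas 2.3.3 and matplotlib 3.10.9 were used.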

Additional observations from a re-analysis of the deposited data

How the results depend on the processing

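Of 38 values recomputed under alternatives, 27 stayed within 1.5 times the reported count, or within 1 SD of the scores for a median, and 11 did not. With windows of 50 kb, centred on the gene position, the Ptf1a window held 2 Myc peaks and 2 shared Ptf1a peaks, and the Rbpjl window 5 Ptf1a peaks; fewer bases are covered by construction. With only peaks of score 100 or more, the Ptf1a window held 2 Myc and 2 shared Ptf1a peaks. When each list was limited to its 1000 peaks of highest score, the Ptf1a window held 1 Ptf1a, 0 Myc and 0 shared peaks. The Rbpjl window then held 2 Ptf1a, 1 Myc and 0 shared. This limit kept a smaller share of the Ptf1a list (17632 peaks) than of the Myc list (5464 peaks). Other definitions of overlap left 3 shared Ptf1a peaks at Ptf1a and 1 at Rbpjl. Depth is unknown, and the lists do not show whether a site found in 1 of them lies just under the threshold of the other. With 1 library each, leaving out replicates was not an option. No paired analysis was possible because there is 1 library per factor.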
